A study of Mus musculus with 14 samples.

Results

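Fat of mice underfed in the womb was compared between pups whose mothers then ate freely and pups whose mothers stayed on short rations. The comparison takes the 5 arrays of the UC group against the 4 arrays of the UU group, 9 of the 14 arrays in the series. All of these mice were ICR, labelled male and 3 weeks old, and the tissue was the epididymal fat pad. Both groups shared a 50% restriction of the mother's food during pregnancy. Mothers of UC pups ate ad libitum during suckling, and mothers of UU pups stayed on the 50% restriction. Ample nursing here means only that the mother ate freely, as no milk supply or pup weight was used. The remaining 5 arrays (CC) came from pups whose mothers ate ad libitum throughout, and they are shown as a reference level. RNA was read on Affymetrix arrays, where a gene is measured by 1 or more probe sets. All 20380 probe sets that name a single gene were considered, and the brightest 60% of them, 12228 probe sets of 8164 genes, were tested. The labels do not say which mice were littermates or whether mothers were exchanged, so p-values measure only the spread between these arrays. The series title names accelerated growth after birth and lipogenic genes, and UC against UU asks what ample nursing adds when the prenatal history is the same.

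White fat of a suckling pup grows by filling adipocytes with triglyceride. Fatty acids reach it from milk lipid, released at the vessel wall by lipoprotein lipase, and are also made inside the cell from acetyl-CoA with NADPH as the reductant. The transcription factors SREBP-1c and ChREBP drive the synthetic enzymes in response to insulin and glucose, and SREBP-2 drives cholesterol synthesis. Between the adipocytes lie resident macrophages, vessels and a collagen-rich matrix, which are remodelled as the depot expands.

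The arrays did not all carry the same tissue. Epididymal fat lies against the epididymis, and Gpx5, a glutathione peroxidase of that duct, had UC signals of 69624, 856.8, 40944, 67097 and 1155 in replicates 1 to 5. The UU arrays read 5711, 41274, 64546 and 31251 in replicates 1 to 4. UC replicates 2 and 5 were thus low, as were CC replicates 2 and 4, while no UU array was. Over 7 tested epididymal markers the mean log2 level ran from 8.21 to 13.51 in UC and from 11.73 to 13.70 in UU, and 6 of 7 lay below 0 in UC minus UU. General epithelial markers lay below 0 in 22 of 22 members, with mean log2 levels of 8.76 to 11.65 in UC and 11.72 to 12.05 in UU. None of the 22 passed the test, and 10 were lower at an unadjusted p under 0.05. Without UC replicates 2 and 5 the median of the epididymal list went from -1.19 to 0.03 and that of the general epithelial list from -1.50 to -0.58. All 22 general epithelial members still lay below 0 in that fit, so leaving out these arrays does not even out the epithelial markers. UC replicate 5 stood apart in further ways. Its signal on the tested Xist probe set was 5642, against at most 1324 in the other UC and UU arrays, and its signal of the Y-linked Eif2s3y was 7.9, against at least 1302, which goes against the male label. Ucp1, the uncoupling protein of brown fat, read 17041 there and at most 642.4 in the other UC and UU arrays. CC replicate 2 was the other array with such Xist signal (3981), and it read 58.6 for Eif2s3y and 8935 for Ucp1. UC replicate 2 had an albumin (Alb) signal of 25660, against 1022 to 3190 in the other UC and UU arrays. RNA quality also varied. On the log2 scale, Gapdh and Actb had 3' signal above 5' signal, a sign of degradation, by 1.63 and 1.59 in UC replicates 1 and 4. UU replicate 3 gave 2.1, and the remaining 6 arrays of both groups gave 0.75 to 1. The part these differences play in the results below was not tested, and values without UC replicates 2 and 5 are given beside the counts, most lists and several genes. In bulk tissue, fewer cells of a type and less RNA per cell cannot be told apart.

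**Figure D1:**
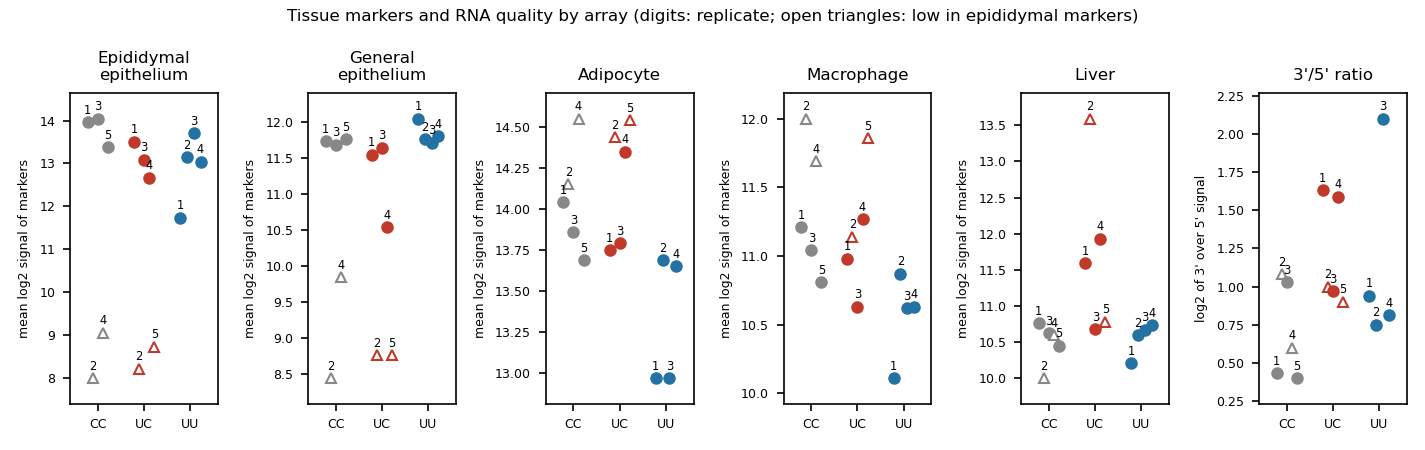
Mean log2 signal of 5 marker lists and the log2 ratio of 3' over 5' signal in each array, with the replicate number beside each point. Open triangles mark the arrays low in epididymal markers, among them UC replicates 2 and 5 and no UU array, and general epithelial markers reach 11.65 at most in UC and 11.72 at least in UU.

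Most of the probe sets that passed the test were higher in UC, while over all probe sets there was no such lean. In limma, 65 of 12228 probe sets passed a Benjamini-Hochberg adjusted p of 0.05, which is 0.532% of those tested. Of these, 59 were higher in UC (0.482%, 55 genes) and 6 were lower (0.0491%, 6 genes). No adjusted p was below 0.0281. The higher probe sets differed by 0.68 to 3.84 on the log2 scale (median 1.21), and 43 of the 59 by at least 1. The lower ones differed by -0.85 to -1.64 (median -1.16). All UC arrays lay on one side of all UU arrays in 64 of the 65, the exception being Ier2. Among all probe sets tested 2.98% had all UC arrays above all UU arrays and 2.54% below. Calls were made on these same arrays, so that separation follows largely from the selection and is no separate support. Called genes had 42 other tested probe sets, of which 39 went in the same direction, 29 of them at an unadjusted p under 0.05, while 2 of Ighm and 1 of Marchf5 went the other way. At an unadjusted p under 0.05 stood 1995 probe sets, 979 higher (8.01%) and 1016 lower (8.31%). Over all 12228 the median difference was -0.06 and the median standard error 0.23. The calls rest on few arrays. Fitted on the 9 UC and UU arrays alone, with the CC arrays left out of the estimate of spread, 2 of the 65 passed. Without UC replicates 2 and 5, 0 probe sets passed (limma, adjusted p at least 0.174, with 1217 under 0.05 unadjusted). All 65 kept their direction and an unadjusted p under 0.05 in that fit, with medians of 1.13 and -1.03. The 65 had been called partly on the remaining arrays, so this too follows in part from the selection. The limma count was also 0 without UC replicate 2 alone (1349 at an unadjusted p under 0.05) or without UC replicate 4 alone (1686), and 2 without UU replicate 1, neither of which was among the 65.

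**Figure D2:**
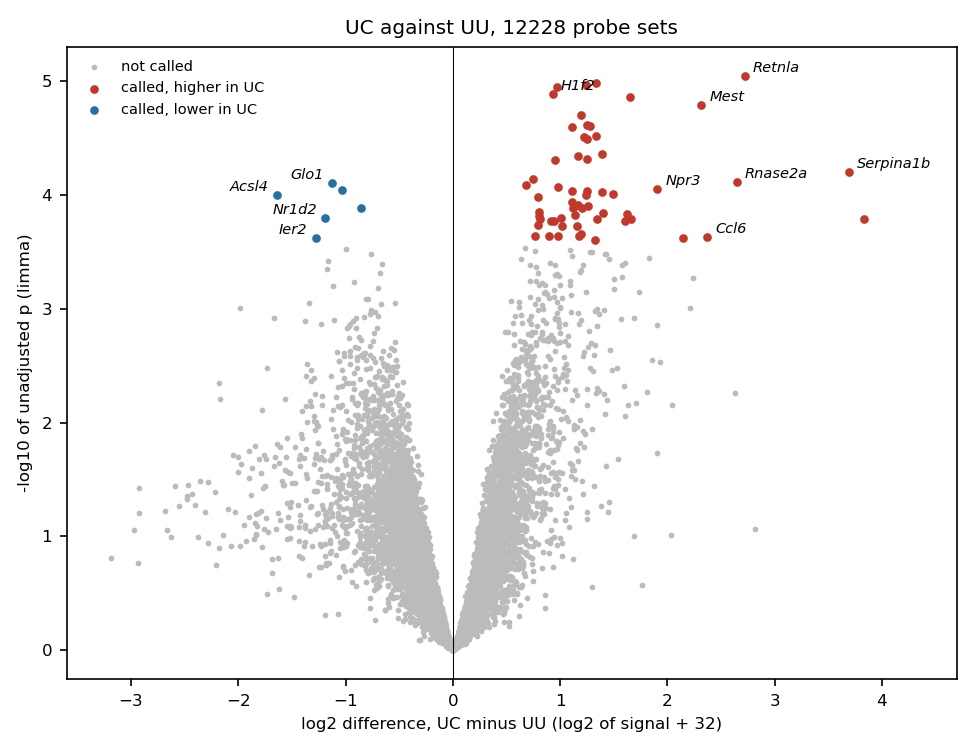
Each point is a probe set, placed by its log2 difference UC minus UU and the -log10 of its unadjusted limma p. The 59 probe sets called higher in UC are red and the 6 called lower are blue.

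Fold changes below come from the limma coefficient on log2(signal + 32), which understates the change of dim genes. Errors are ± SE for log2 differences and ± SD for signals (n = 5 UC and n = 4 UU), and arrays are listed in replicate order. Signals of different genes come from different probes and are not compared with each other. Gene lists count each gene by its brightest probe set. Of 8160 genes counted that way, 0.49% were called higher and 0.0613% lower. At an unadjusted p under 0.05, 8.5% were higher and 8.79% lower, in 3.28% all UC arrays lay above all UU arrays, and in 2.66% below. The median over these genes was -0.06, with 42.2% above 0. List counts should be read against these shares.

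Genes known for the expansion of fat held 2 called members, and their mean log2 levels were 13.33 to 13.81 in UC and 12.30 to 12.90 in UU. Mest, an imprinted gene of the alpha/beta hydrolase fold whose transcript marks growing adipocytes, had signals of 14751, 19812, 17988, 15959 and 13278 in UC and of 2089, 5200, 2476 and 4013 in UU. The lowest UC array was above every UU array by a wide margin, and Mest rose 4.98-fold (log2 difference 2.32 ± 0.38, limma adjusted p = 0.0281). Without UC replicates 2 and 5 the difference was 2.32 as well. CC arrays spanned 5617 to 31842, so that UC lay within the CC range and UU below it.

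Npr3, the clearance receptor that removes natriuretic peptides and so limits their lipolytic signal, was at 5636, 11158, 8709, 13501 and 11372 in UC against 1168, 3456, 2341 and 4473 in UU. It rose 3.75-fold (log2 difference 1.91 ± 0.37, limma adjusted p = 0.0387), and a dimmer probe set gave 1.93 ± 0.55. Caveolin genes, which shape the pits of the adipocyte membrane, pointed the same way without passing: Cav1 gave 0.78 ± 0.18 (adjusted p = 0.0691) and Cav2 0.67 ± 0.21 (adjusted p = 0.153), each with UC and UU arrays apart. In all, 7 of 7 tested members of the expansion list lay above 0 and 2 were called, with a median of 0.67, and of 0.70 without UC replicates 2 and 5. The caveolar coat gene Cavin3, outside that list and chosen after its values were seen, rose 2.63-fold (1.39 ± 0.25, limma adjusted p = 0.0334).

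**Figure D3:**
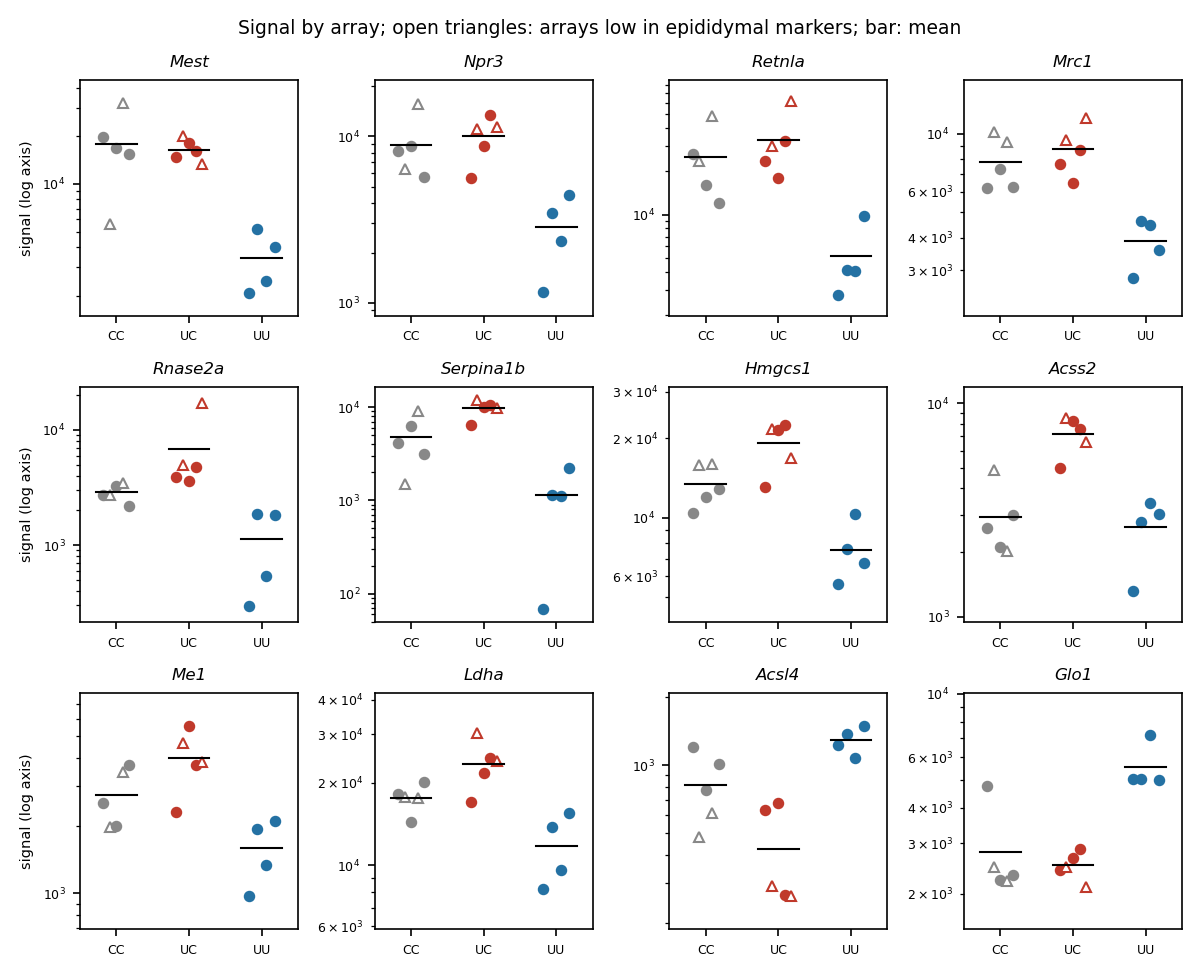
Signals of 12 called genes in each array on log axes, with the group mean as a bar and open triangles for arrays low in epididymal markers. In every panel the 5 UC arrays lie on one side of the 4 UU arrays, above them for 10 genes and below them for Acsl4 and Glo1.

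Among fatty acid synthesis genes Acss2 and Me1 passed, and most others lay above 0. Acss2 turns acetate into acetyl-CoA in the cytosol. Its UC signals were 4964, 8576, 8246, 7606 and 6577, and its UU signals 1315, 2774, 3420 and 3039. No UU array reached the lowest UC array, and Acss2 rose 2.82-fold (1.5 ± 0.29, limma adjusted p = 0.0387, 1.44 without UC replicates 2 and 5), with 1.18 ± 0.30 on a dimmer probe set that overlapped. CC arrays ran from 2040 to 4870, so UC lay above CC as well, while UU overlapped it.

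Me1, the malic enzyme that supplies cytosolic NADPH, was called on its dimmer probe set. That probe set read 2315, 4654, 5578, 3732 and 3836 in UC and 971.6, 1935, 1340 and 2101 in UU, a 2.51-fold rise (1.33 ± 0.28, limma adjusted p = 0.0467). The brighter one gave 1.24 ± 0.30 (adjusted p = 0.0763), with overlapping arrays. Fasn, the fatty acid synthase, read 25398, 54610, 37705, 52131 and 39272 in UC and 6863, 25427, 15561 and 24882 in UU. A single UU array reached just past the lowest UC array, and the difference of 1.32 ± 0.33 did not pass (limma adjusted p = 0.0886). Pnpla3, a lipid droplet protein under lipogenic control, gave 1.53 ± 0.44 (adjusted p = 0.132) with no overlap, and 0.89 without UU replicate 1.

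The other NADPH and chain-building genes of the panel gave smaller values. Pgd and Taldo1, of the pentose phosphate pathway, gave 0.71 ± 0.20 and 0.71 ± 0.18, and Thrsp, a lipogenic regulator of fat and liver, 0.99 ± 0.36, with 0.22 ± 0.51 on its dimmer probe set. Acly, which cleaves citrate to acetyl-CoA, gave 0.34 ± 0.30 on its brightest probe set, with 0.62 ± 0.26 and 0.68 ± 0.44 on dimmer ones. Acaca, the carboxylase of the next step, gave 0.30 ± 0.32. The desaturases and the elongase stood near 0: Scd1 gave -0.05 ± 0.19, Scd2 0.03 ± 0.37 and Elovl6 0.00 ± 0.23. Over the list, 15 of 22 members lay above 0, 1 was called, 9 were higher at an unadjusted p under 0.05 and the median was 0.32 (0.31 without UC replicates 2 and 5). The arrays' mean levels overlapped, at 12.79 to 13.33 in UC and 12.30 to 12.99 in UU.

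Regulators of these enzymes gave no call. Of 10 tested, 3 lay above 0 and 0 passed in limma or reached an unadjusted p under 0.05, with a median of -0.09. Srebf1, which encodes SREBP-1c, read 17393, 22886, 13064, 28559 and 11916 in UC and 6838, 19035, 22518 and 16605 in UU. The groups overlapped, with a difference of 0.26 ± 0.32 (limma adjusted p = 0.712), which was -0.11 without UU replicate 1. Mlxipl, which encodes ChREBP, gave -0.06 ± 0.21. Transcript levels of these factors do not show their processing or activity.

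Cholesterol synthesis was led by Hmgcs1, the cytosolic HMG-CoA synthase, which was called on all 3 of its probe sets. The probe set of smallest p read 13047, 21802, 21584, 22476 and 16818 in UC and 5626, 7613, 10330 and 6747 in UU. All UC arrays were above all UU arrays, a 2.53-fold rise (1.34 ± 0.21, limma adjusted p = 0.0281), and the other probe sets gave 1.22 ± 0.21 and 1.24 ± 0.20. Sc5d and Dhcr7, late enzymes of the pathway, gave 1.07 ± 0.29 and 0.96 ± 0.31 and did not pass, and a dimmer probe set of Sc5d gave 0.14 ± 0.27. In all, 13 of 18 members lay above 0 and 1 was called, with a median of 0.27 (0.25 without UC replicates 2 and 5). Mean levels of the list were 10.77 to 11.07 in UC and 10.34 to 10.70 in UU, without overlap.

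The 250 bases before the start of Hmgcs1 and of Acss2 are printed because these called genes are known targets of SREBP factors. The choice was made after their values were seen. Sequences are from RefSeq (GRCm38.p6), at chr13:119690101-119690350 on the plus strand and chr2:155517793-155518042 on the plus strand. Capitals mark the sterol regulatory element TCACNCCAC or the CCAAT box, searched on both strands, where ATTGG is the box read from the other strand.
Hmgcs1: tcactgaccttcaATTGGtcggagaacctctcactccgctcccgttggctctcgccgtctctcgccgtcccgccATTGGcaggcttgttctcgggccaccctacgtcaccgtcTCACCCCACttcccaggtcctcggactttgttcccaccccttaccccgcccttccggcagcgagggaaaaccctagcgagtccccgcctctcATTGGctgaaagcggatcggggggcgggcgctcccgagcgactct
Acss2: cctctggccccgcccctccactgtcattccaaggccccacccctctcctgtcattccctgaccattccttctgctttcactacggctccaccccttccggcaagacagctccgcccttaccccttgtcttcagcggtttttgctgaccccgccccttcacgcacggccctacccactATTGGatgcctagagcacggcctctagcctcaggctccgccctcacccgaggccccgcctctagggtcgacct
Hmgcs1 holds 1 match to the sterol element, which 1.05% of 32851 promoters of that length hold, and 3 CCAAT boxes. Acss2 holds 1 CCAAT box, found in 33.8% of promoters, and no sterol element in these letters. Me1, searched in the same way, holds neither. A match is a description of the letters and not a site of binding.

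Triglyceride assembly gave a mixed picture. Dgat2, which adds the last acyl chain, read 18379, 41296, 34208, 35114 and 45301 in UC and 4311, 15401, 5562 and 20696 in UU. A single UU array passed the lowest UC array, and the difference of 1.83 ± 0.40 fell short of the threshold (limma adjusted p = 0.0572), with 1.3 ± 0.38 on a dimmer probe set. Gpam, the acyltransferase of the opening step, gave -0.01 ± 0.18, and Gpd1, which supplies glycerol phosphate, 0.98 ± 0.36, with 0.39 ± 0.35 and 0.12 ± 0.37 on its dimmer probe sets. Agpat1 and Agpat5, acyltransferases of the next step, lay below 0 at -0.94 ± 0.30 and -1.08 ± 0.40, both with no overlap and neither passing, and a dimmer probe set of Agpat1 gave -0.31 ± 0.21. Pck1, of glyceroneogenesis, gave 0.91 ± 0.54. The list median of 0.28 over 13 members became -0.06 without UC replicates 2 and 5, with none called.

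Of 12 lipid droplet and lipase genes Mgll was the called member. Mgll, the monoacylglycerol lipase, read 16362, 23405, 15343, 27893 and 20743 in UC and 6566, 13564, 6094 and 9676 in UU. It rose 2.37-fold without overlap (1.25 ± 0.24, limma adjusted p = 0.0387). The droplet coat genes Plin4 and Plin2 gave 0.98 ± 0.25 and 1.14 ± 0.35 with arrays apart, and the droplet-fusion gene Cidec gave 1.06 ± 0.36 with overlap. The other lipases differed less: Lipe, the hormone-sensitive lipase, gave 0.83 ± 0.37 and Pnpla2, the adipose triglyceride lipase, 0.18 ± 0.26. Of the 12, 10 lay above 0, or 8 without UC replicates 2 and 5, and the median was 0.76, or 0.56 without them. Mean levels overlapped, at 12.62 to 13.48 in UC and 12.07 to 12.75 in UU.

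Fatty acid uptake had a called fall on 1 probe set of Acsl4, and no gene of the list was called on its brightest probe set. Acsl4, the acyl-CoA synthetase that prefers arachidonic acid, was called on its dimmer probe set, at 632.3, 291.5, 682.9, 265.1 and 263.6 in UC and 1233, 1369, 1073 and 1489 in UU. It fell 3.11-fold with no overlap (-1.64 ± 0.32, limma adjusted p = 0.0387, -1.34 without UC replicates 2 and 5). Its brighter probe set gave -1.09 ± 0.34 (adjusted p = 0.155), also without overlap, and -0.67 without these 2 arrays. On both probe sets UC replicates 2 and 5, and CC replicates 2 and 4, were among the lowest arrays of their groups, as they were in epididymal markers; the part this plays was not tested. Lpl, the lipoprotein lipase, gave 0.20 ± 0.22 on its brighter probe set and 1.0 ± 0.23 (adjusted p = 0.0712, no overlap) on the other, so the probe sets disagree. Cd36, the fatty acid translocase, gave 0.77 ± 0.23 and Angptl4, an inhibitor of lipoprotein lipase, 1.36 ± 0.42. The list median was 0.23 (0.14 without UC replicates 2 and 5), with 8 of 11 above 0.

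Secreted products of fat leaned higher in UC, and none passed. Lep, the leptin transcript, read 8007, 15556, 10538, 13012 and 9666 in UC and 85.6, 5948, 3796 and 3768 in UU. The groups did not overlap, but UU replicate 1 was far below the rest and the difference of 2.63 ± 0.82 had a limma adjusted p of 0.153. Without that array the difference was 1.32. Adipoq, adiponectin, gave 0.86 ± 0.25, Rbp4, a retinol carrier, 0.80 ± 0.25, and Ccdc80, a matrix-associated adipokine, 1.0 ± 0.25 (adjusted p = 0.0883). The adipokine median was 0.41 over 12 members (0.27 without UC replicates 2 and 5), with 8 above 0.

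Adipocyte markers, the defining genes of the labelled tissue, lay above 0 in 10 of 10 members, with 6 at an unadjusted p under 0.05, 0 called in limma and a median of 0.80. Their mean levels were 13.75 to 14.54 in UC and 12.97 to 13.69 in UU, and the median without UC replicates 2 and 5 was 0.52. Among adipogenic transcription factors the median was 0.03 over 16 genes (-0.01 without these arrays). Cebpa gave 1.09 ± 0.25 (limma adjusted p = 0.0691, no overlap) and Pparg, the master regulator of adipocytes, 0.92 ± 0.29, whereas Nr2f2, a nuclear receptor that restrains adipogenesis, gave -0.97 ± 0.26, with -0.25 ± 0.19 and -0.72 ± 0.27 on its dimmer probe sets.

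Glycolysis held 3 called genes, the most of any metabolic list. Pfkl and Pfkp are subunits of phosphofructokinase, the committed step. Pfkl read 6732, 6762, 4516, 6311 and 4703 in UC and 1550, 3594, 3059 and 2793 in UU, a 2.16-fold rise (1.11 ± 0.21, limma adjusted p = 0.0387). Pfkp read 1520, 1858, 1532, 1452 and 2170 against 1034, 1101, 749.2 and 1072, a 1.7-fold rise (0.77 ± 0.16, adjusted p = 0.0459). Ldha, which makes lactate, read 16970, 30244, 21588, 24490 and 23980 against 8231, 13813, 9651 and 15498, a 2.02-fold rise (1.01 ± 0.21, adjusted p = 0.0393). None of the 3 had overlapping arrays. Pfkfb3, which makes the activator of phosphofructokinase, gave 1.61 ± 0.36 (adjusted p = 0.0588) with overlap, and -0.03 ± 0.28 on a dimmer probe set, so its probe sets disagree. Over 15 genes 11 lay above 0, with a median of 0.34, and of 0.34 without UC replicates 2 and 5.

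The promoter of Ldha is shown because the 3 called glycolytic genes were searched for E-boxes and for the core of the hypoxia response element, letters bound by factors known to drive glycolysis. The stretch lies at chr7:46845554-46845803 (GRCm38.p6, RefSeq, plus strand), before the most upstream of its 2 listed starts, and capitals mark ACGTG on either strand.
Ldha: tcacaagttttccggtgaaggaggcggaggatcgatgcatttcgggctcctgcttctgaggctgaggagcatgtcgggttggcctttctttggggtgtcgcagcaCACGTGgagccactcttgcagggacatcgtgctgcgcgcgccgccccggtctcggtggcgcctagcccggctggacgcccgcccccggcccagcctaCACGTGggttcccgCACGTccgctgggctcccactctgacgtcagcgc
It holds 5 matches to ACGTG, a core that 16.6% of promoters hold, and 2 E-boxes (CACGTG, in 6.02%), each of which contains the core on both strands. Neither Pfkl nor Pfkp holds these letters in its 250 bases.

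Mitochondrial lists leaned higher in UC by amounts that shrank without UC replicates 2 and 5. The pyruvate dehydrogenase list had a median of 0.54 over 10 genes (0.32 without them), led by Mpc1, the pyruvate carrier, at 0.97 ± 0.26. The TCA cycle had a median of 0.49 with 16 of 18 above 0 (0.21 without them), with Idh3a at 0.96 ± 0.24 (limma adjusted p = 0.0933), and at 0.64 ± 0.30 and 0.39 ± 0.19 on dimmer probe sets. Respiratory chain and ATP synthase genes lay above 0 in 54 of 65 (49 without them), with a median of 0.28 (0.14 without them). Uqcrfs1, of complex III, gave 0.74 ± 0.23. Fatty acid oxidation lay above 0 in 19 of 21 (14 without UC replicates 2 and 5), with a median of 0.42 (0.14 without them). Cpt2, which reloads acyl-CoA inside mitochondria, gave 0.86 ± 0.28, or 0.13 ± 0.31 on a dimmer probe set. Branched-chain amino acid catabolism had a median of 0.14 (-0.03 without them). Mean levels of UC and UU arrays overlapped in each of these 5 lists, and none held a gene called on its brightest probe set. Mdh2, mitochondrial malate dehydrogenase, was called on a dimmer one, at 18374, 36061, 19199, 35752 and 33219 in UC and 17093, 10064, 11544 and 9770 in UU (1.21 ± 0.24, limma adjusted p = 0.0393). UC replicate 5, which carried the Ucp1 signal, had the highest mean level of the 9 arrays in the respiratory chain, TCA and oxidation lists.

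The growth hormone and insulin axes were split. Ghr, the growth hormone receptor, rose on the probe set at 11000, 21912, 10276, 18652 and 13112 in UC and 5291, 7116, 5632 and 6350 in UU (2.36-fold, 1.24 ± 0.24, limma adjusted p = 0.0387). Its brightest probe set gave 0.88 ± 0.24 with overlap (adjusted p = 0.111). Igf1, a growth factor induced through that receptor, gave 0.91 ± 0.31, 1.29 ± 0.28 and 1.28 ± 0.28 on 3 probe sets, the latter pair each at a limma adjusted p of 0.0547 without overlap, and Igfbp5 gave 1.19 ± 0.40, with 0.01 ± 0.47 on a dimmer probe set. The growth hormone and IGF list as a whole had a median of -0.13 with 8 of 17 above 0. Insulin signalling had a median of 0.03 over 13 genes (-0.18 without UC replicates 2 and 5), and Slc2a4, the insulin-responsive glucose transporter, gave -0.01 ± 0.25.

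Of 13 genes of resident, alternatively activated macrophages, Retnla and Mrc1 were called higher in UC than in UU. Retnla, a secreted resistin-like protein of these cells, read 23700, 30291, 18113, 32422 and 62092 in UC and 2749, 4083, 4048 and 9768 in UU. Every UC array was above every UU array, UC replicate 5 being the highest, and Retnla rose 6.59-fold (2.72 ± 0.42, limma adjusted p = 0.0281, 2.38 without UC replicates 2 and 5). Mrc1, the mannose receptor, read 7642, 9490, 6487, 8631 and 11458 against 2809, 4625, 4474 and 3598, a 2.25-fold rise without overlap (1.17 ± 0.21, adjusted p = 0.0334). F13a1, a transglutaminase of the same cells, gave 1.23 ± 0.34 (adjusted p = 0.123). Lyve1, a hyaluronan receptor of macrophages and lymphatic vessels, was called on a dimmer probe set (1.18 ± 0.25, limma adjusted p = 0.0459) and not on its brightest. All 13 members lay above 0 with all arrays and also without UC replicates 2 and 5, with medians of 0.60 and 0.35. Mean levels were 10.99 to 12.19 in UC and 10.18 to 10.93 in UU.

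General macrophage markers went the same way without a call. In limma 0 of 25 passed, 15 were higher and 1 lower at an unadjusted p under 0.05, and 21 lay above 0, with a median of 0.75 (0.50 without UC replicates 2 and 5). Csf1r, the receptor of the macrophage growth factor, gave 1.28 ± 0.37, 1.41 ± 0.35 and 0.35 ± 0.27 on 3 probe sets, and Fcer1g, a signalling chain of Fc receptors, 1.58 ± 0.35 (adjusted p = 0.0588, no overlap). Lyz1, a lysozyme, gave 1.81 ± 0.56 and was highest in UC replicate 5 at 30070. MHC class II genes lay above 0 in 6 of 6 (median 0.56, or 0.44 without these arrays), with H2-Aa at 1.11 ± 0.44, its dimmer probe set at 0.60 ± 0.40, and Cd74, the invariant chain, at 0.73 ± 0.33. Complement genes had a median of 0.56 over 14 (0.36 without these arrays), with Cfp, properdin, at 1.86 ± 0.53 and C1qc at 1.13 ± 0.39.

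Other immune transcripts were among the widest differences. Rnase2a, an eosinophil-associated ribonuclease, read 3905, 5010, 3594, 4735 and 17038 in UC and 298.5, 1869, 541.5 and 1842 in UU. UC replicate 5 was far above the rest, yet the other 4 UC arrays also exceeded every UU array. The rise was 6.25-fold (2.64 ± 0.50, limma adjusted p = 0.0387), and 2.17 on the log2 scale without UC replicates 2 and 5. Ccl6, a chemokine of myeloid cells, read 2904, 5555, 3041, 10306 and 10032 against 438.4, 2016, 957.6 and 1346, a 5.18-fold rise without overlap (2.37 ± 0.50, adjusted p = 0.0459), and its dimmer probe set gave 1.41 ± 0.44. Ccl9, another chemokine of myeloid cells, gave 1.48 ± 0.43 without overlap and 0.41 ± 0.41 with overlap on a dimmer probe set, neither passing. Cxcl14, a chemokine of epithelium and fat, gave -0.99 ± 0.22 (limma adjusted p = 0.0541) with no overlap. The 10 tested chemokines had a median of 0.16 with 6 above 0, and of -0.09 without UC replicates 2 and 5.

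Ighm, the heavy chain of IgM, was called on 1 of 4 tested probe sets. It read 2048, 1596, 7997, 4129 and 5282 in UC and 284.4, 1314, 1065 and 904.1 in UU (4.42-fold, 2.14 ± 0.45, limma adjusted p = 0.046). The brightest probe set gave 2.21 ± 0.55 with overlapping arrays (adjusted p = 0.0883). The remaining pair gave -0.55 and -0.19, so Ighm is uncertain.

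Among matrix genes, 1 of 26 collagen and laminin chains, 0 of 20 proteoglycans and 1 of 22 crosslinking and remodelling genes were called. Col5a3, a fibrillar collagen chain, read 13401, 15003, 10900, 21849 and 14783 in UC and 5102, 8529, 5775 and 7582 in UU, a 2.23-fold rise (1.16 ± 0.24, limma adjusted p = 0.0408) with no overlap. Chains of basement membrane and of microfibrils gave smaller values that did not pass: Col4a1 0.73 ± 0.19, Col4a2 0.79 ± 0.20, Nid2 0.83 ± 0.22 and Col6a3 0.72 ± 0.16 (adjusted p = 0.0588), all with arrays apart. Collagen and laminin chains lay above 0 in 20 of 26, 11 at an unadjusted p under 0.05, and in 8 of 26 all UC arrays exceeded all UU arrays. The median was 0.35 (0.26 without UC replicates 2 and 5). Mean levels were 12.76 to 13.08 in UC and 12.45 to 12.65 in UU, and UC replicate 5 was the highest.

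Adamts5, a protease that cleaves proteoglycans, read 5659, 8662, 7175, 5297 and 6527 in UC and 3205, 3352, 3340 and 2304 in UU, a 2.16-fold rise with no overlap (1.11 ± 0.22, limma adjusted p = 0.0393). Loxl1, a crosslinker of elastin, gave 1.09 ± 0.24 (adjusted p = 0.0543, no overlap), and the crosslinking list had a median of 0.21, or 0.05 without UC replicate 5. Prelp, a leucine-rich proteoglycan, gave 1.45 ± 0.32 (adjusted p = 0.0572), and Fn1, fibronectin, 1.04 ± 0.30, highest in UC replicate 5 at 38896, with 0.50 ± 0.36 on a dimmer probe set. Proteoglycans and fibronectin lay above 0 in 17 of 20, with a median of 0.44 (0.23 without UC replicates 2 and 5) and 0 called in limma (6 at an unadjusted p under 0.05). Endothelial markers had a median of 0.27 over 20 genes (0.13 without these arrays), with Vwf, von Willebrand factor, at 1.36 ± 0.34 and Ramp2 at 0.63 ± 0.18, neither passing.

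Serpina1b, an alpha-1-antitrypsin gene made mainly by liver, had the widest rise of all called genes. Its brighter probe set read 6434, 12551, 10720, 12213 and 10708 in UC and 36.2, 1452, 1073 and 2367 in UU. UU replicate 1 was close to the floor, and all UC arrays were above all UU arrays (14.3-fold, 3.84 ± 0.78, limma adjusted p = 0.0393). The dimmer one gave 3.69 ± 0.68. Without UU replicate 1 the differences were 2.70 (6.5-fold, limma adjusted p = 0.0626) and 2.73 (adjusted p = 0.0616), so that neither passed. Near-identical copies of this gene can share probes, so which copy was read is uncertain. CC arrays ran from 1629 to 10924. Liver markers, among them Serpina1b as the called one, lay above 0 in 8 of 9, with mean levels of 10.68 to 13.59 in UC and 10.21 to 10.73 in UU and a median of 1.11 (0.60 without UC replicates 2 and 5). Alb was 25660 in UC replicate 2 and 1324 to 3190 in the other UC arrays, and Serpina1c was 15702 and 1086 to 2023. The part of liver RNA in the Serpina1b difference was not tested. Hp, haptoglobin, which fat also makes, gave 1.11 ± 0.35.

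Called rises with the largest folds included 3 regulators and enzymes outside the lists. Rps6ka3, the growth-signal kinase RSK2, read 2410, 3308, 1998, 3654 and 2522 in UC and 434.9, 1163, 748.3 and 1314 in UU on its dimmer probe set (3.14-fold, 1.65 ± 0.27, limma adjusted p = 0.0281), and the brighter one gave 0.99 ± 0.23. Dtx2, a ubiquitin ligase of the Deltex family, read 1840, 2479, 1561, 2994 and 1605 against 611.4, 976.6, 230.9 and 1020 (3.16-fold, 1.66 ± 0.34, adjusted p = 0.0393), with 0.70 ± 0.29 on a dimmer, overlapping probe set. Lpgat1, a lysophospholipid acyltransferase, was called on 2 of 4 tested probe sets, with 6673, 17654, 12664, 14707 and 11854 against 1855, 4383, 4849 and 5949 on the one with the wider difference (3.07-fold, 1.62 ± 0.33, adjusted p = 0.0393). The called probe sets of these 3 genes showed no overlap.

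Further called rises, picked for mention after their values were seen, covered metabolism, vessels and membranes. Sucnr1, the succinate receptor, rose 3.04-fold and Aspa, which frees acetate from N-acetylaspartate, 2.24-fold. Nnmt, the nicotinamide methyltransferase of fat, rose 1.97-fold and Prps1, which makes the ribose donor for nucleotides, 1.93-fold. Cd93, an endothelial and myeloid receptor, rose 2.38-fold, Itga7, a laminin-binding integrin, 2.38-fold and Emp1, a membrane protein, 2.39-fold. The annexins Anxa1 and Anxa2 each rose 1.74-fold, and the tubulins Tubb2a and Tubb6 rose 2.2-fold and 2.28-fold. H1f2, a linker histone, read 8487, 7240, 8713, 7596 and 6480 in UC and 3638, 3937, 4045 and 4416 in UU (1.91-fold, 0.93 ± 0.15, limma adjusted p = 0.0281).

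Glo1 fell. It encodes glyoxalase 1, which detoxifies methylglyoxal, a by-product of glycolysis. Its brightest probe set read 2423, 2487, 2670, 2873 and 2105 in UC and 5052, 5031, 7200 and 4987 in UU. The UC arrays were tightly grouped and far below all UU arrays, a 2.19-fold fall (-1.13 ± 0.21, limma adjusted p = 0.0387, -1.04 without UC replicates 2 and 5). Its other probe sets gave -0.85 ± 0.26 and -1.04 ± 0.33. In CC, replicate 1 read 4766 and the other 4 arrays 2207 to 2479, so that high and low levels occurred within that group.

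Slf2, a factor of the SMC5/6 genome-maintenance complex, read 1605, 942.4, 1414, 1982 and 1464 in UC and 2934, 3503, 3156 and 2461 in UU (2.05-fold fall, -1.04 ± 0.20, limma adjusted p = 0.0387). Obsl1, a cytoskeletal adaptor mutated in a growth disorder, read 1307, 774.6, 991.7, 909.3 and 784.1 against 1884, 1804, 1501 and 1704 (1.81-fold fall, -0.85 ± 0.17, adjusted p = 0.0393). Neither overlapped between groups.

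Of 15 clock genes Nr1d2 was called. Nr1d2 encodes REV-ERB beta, a repressor within the clock. It read 2587, 1738, 2739, 1820 and 1660 in UC and 5207, 4852, 5744 and 3494 in UU, a 2.28-fold fall without overlap (-1.19 ± 0.24, limma adjusted p = 0.0393, -1.01 without UC replicates 2 and 5). The period genes, repressors of the core activator, gave -0.81 ± 0.25 for Per1, -0.81 ± 0.23 for Per2 and -1.16 ± 0.26 for Per3 (adjusted p = 0.0586).

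The output factors Dbp and Tef gave -1.29 ± 0.38 and -0.76 ± 0.19, and Hlf -0.44 ± 0.17. UC and UU arrays were apart for the 3 period genes, for Dbp, Tef and Hlf. Arntl, the core activator also called BMAL1, lay the other way at 1631, 2180, 1997, 1982 and 1655 in UC and 1045, 1060, 1462 and 1021 in UU (0.71 ± 0.20, limma adjusted p = 0.121), and its partner Clock gave 0.59 ± 0.18 and, on a dimmer probe set, 1.51 ± 0.36 (adjusted p = 0.0744). Over the list 12 of 15 lay below 0 and 9 were lower at an unadjusted p under 0.05. The median was -0.73, and -0.48 without UC replicates 2 and 5. Mean levels were 9.58 to 10.20 in UC and 10.42 to 10.65 in UU. The hour of collection was not used here, so that its part in these differences was not tested.

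**Figure D4:**
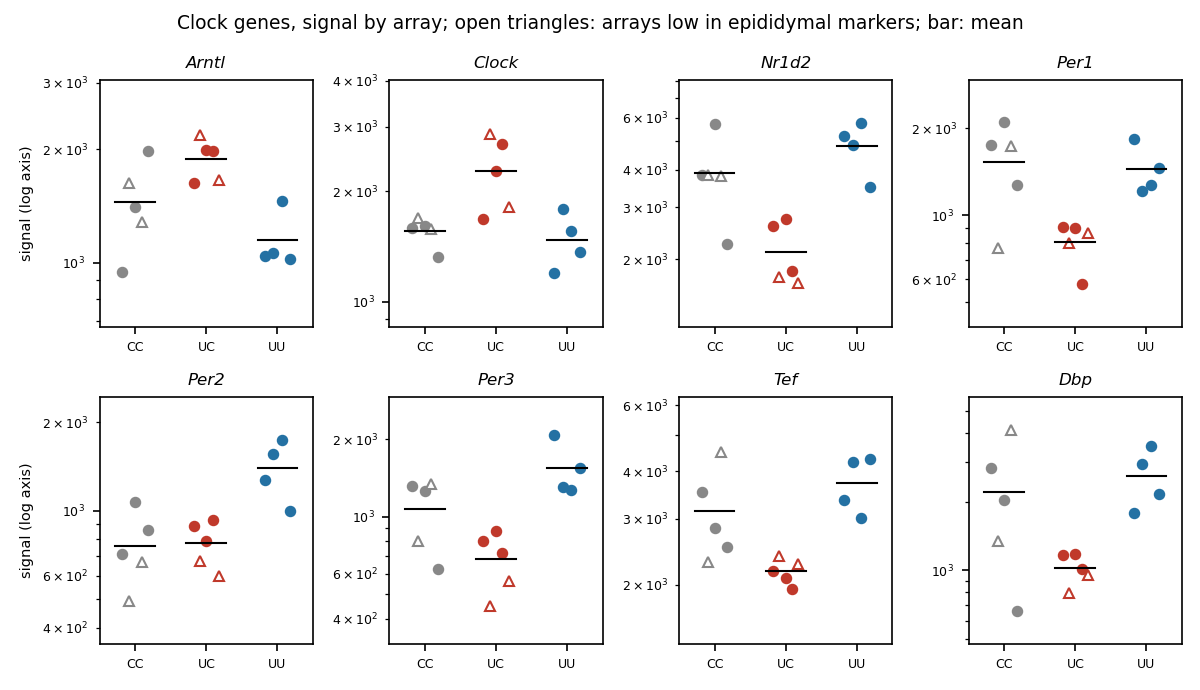
Signals of 8 clock genes in each array on log axes, with bars at the group means. Arntl and Clock sit higher in UC than in UU, with 1 UC array of Clock inside the UU range, while the period genes, Nr1d2, Tef and Dbp sit lower in all 5 UC arrays than in all 4 UU arrays.

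Immediate early genes, switched on within minutes of a stimulus or of handling, were lower in mean level. Ier2 was called at 380.1, 379.5, 393.4, 545.3 and 393.5 in UC and 1196, 1127, 525.0 and 1696 in UU (2.42-fold fall, -1.28 ± 0.27, limma adjusted p = 0.046). Here UU replicate 3 lay below UC replicate 4, so the groups overlapped. Egr1 gave -0.87 ± 0.35. Of 24 members 17 lay below 0, with a median of -0.27 (-0.21 without UC replicates 2 and 5), and mean levels were 9.96 to 10.35 in UC and 10.43 to 10.71 in UU.

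Growth machinery leaned lower by small amounts, and no member of these lists was called. DNA replication genes lay below 0 in 22 of 24 (median -0.20), and in 16 of 24 without UC replicates 2 and 5 (median -0.08). Mcm2, of the replicative helicase, gave -0.81 ± 0.31, with -0.41 ± 0.26 on a dimmer probe set. Mitosis genes showed no lean, with 11 of 23 below 0 and a median of 0.02. Cytoplasmic ribosomal protein genes lay below 0 in 36 of 40, with a median of -0.21 (-0.14 without the 2 arrays), Rps15 at -0.89 ± 0.30 being the one of smallest p. Splicing factors lay below 0 in 25 of 30, with a median of -0.21 (-0.12). In limma 0 genes of these 4 lists passed. At an unadjusted p under 0.05, 4 replication, 5 ribosomal, 5 splicing and 0 mitosis genes were lower, and 0 were higher. Medians of this size should be set beside the -0.06 of all genes, which median centring of each array moves to 0.07. Cdkn1a, the cell cycle inhibitor p21, gave 0.35 ± 0.23.

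**Figure D5:**
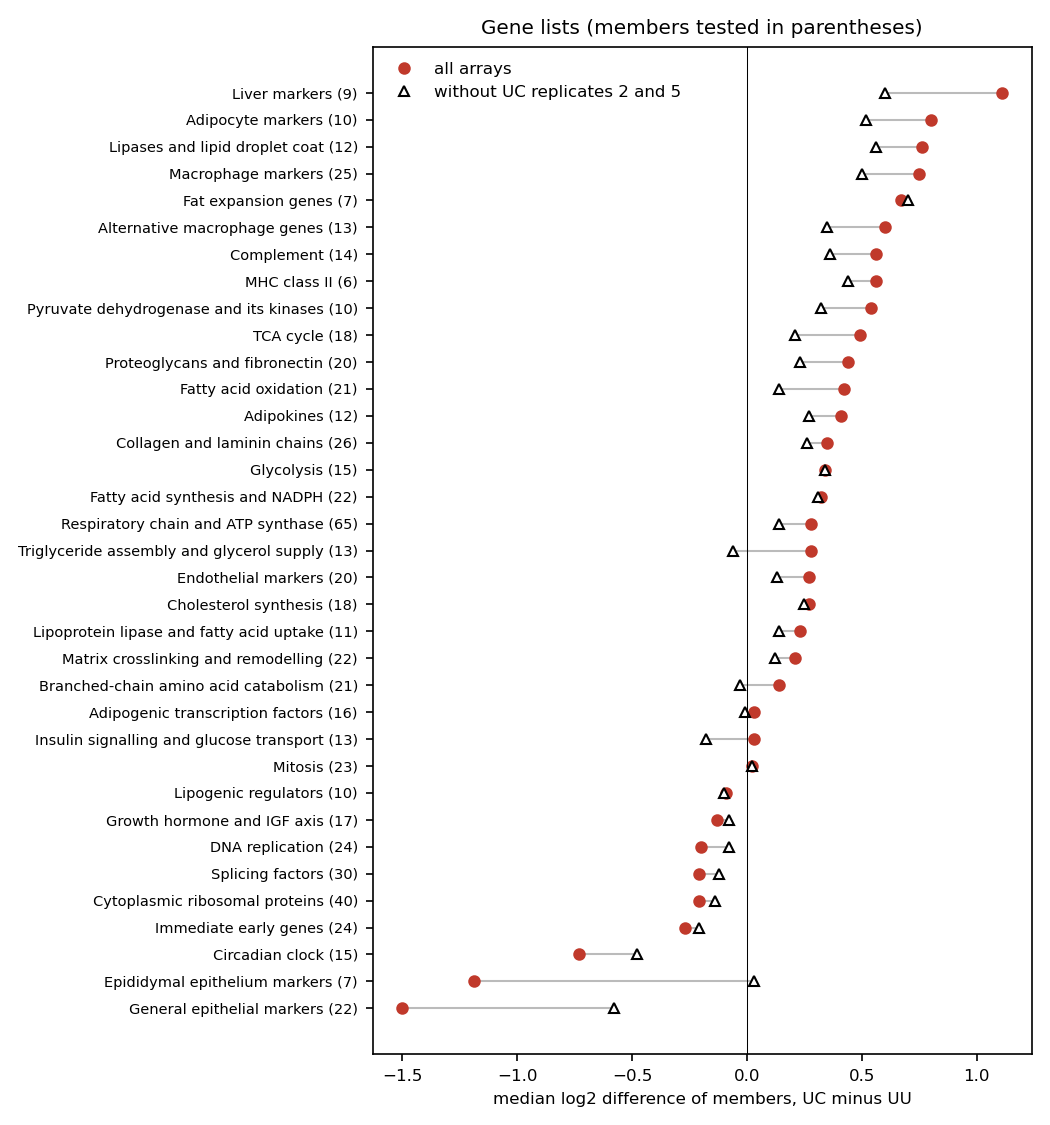
Median log2 difference UC minus UU of the members of 35 gene lists, with all arrays (filled circles) and without UC replicates 2 and 5 (open triangles). Fat expansion, glycolysis, fatty acid and cholesterol synthesis keep their medians. The epididymal list moves from -1.19 to 0.03, while the general epithelial list moves from -1.50 to -0.58 and stays below 0.

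Set beside the fully fed reference, most probe sets called higher had a CC mean nearer to UC than to UU. The 3 contrasts share arrays, so these values are a description. The 59 probe sets called higher had a median of 0.40 for UC minus CC (range -0.05 to 1.34) and of -0.81 for UU minus CC (range -2.83 to -0.02). In 48 of them the CC mean was nearer to UC. The same share over all probe sets tested was not counted, and the called ones were chosen for a wide UC minus UU difference. For Mest the values were 0.06 and -2.26, for Npr3 0.21 and -1.70, for Retnla 0.43 and -2.29, and for Mrc1 0.16 and -1.0. Acss2 was an exception at 1.34 and -0.16, being nearer to CC in UU. Hspb8, a small heat shock protein called on a dimmer probe set and chosen after its values were seen, was another at 0.73 and -0.02. For the 6 lower probe sets the medians were -0.61 and 0.64, and in 3 of the 6 the CC mean was nearer to UC, with Glo1 at -0.09 and 1.03, Nr1d2 at -0.85 and 0.34, and Ier2 at -1.03 and 0.25.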

How the data were processed

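Groups came from the labels' group assignment. The deposited values are linear intensity signals that the authors made, with GCOS 1.3 and MAS5 named in the submitters' processing notes, and the trimmed means of the arrays lay between 1500.45 and 1500.57. Of 22690 probe sets, the platform annotation gave 1 symbol for 20380, updated through Entrez identifiers for 20351. Signals were taken as log2(signal + 32), the dimmest 40% by mean over 14 arrays were left out, and all 14 arrays entered limma 3.58.1 (R 4.3.3, group means, empirical Bayes with a trend, 11 residual degrees of freedom, two-sided, Benjamini-Hochberg adjusted p under 0.05). The fit was tested on simulated data. Named genes were the 10 widest called differences in each direction without overlap, a panel of 30 genes, and up to 4 members of smallest p in each direction of a list, and the 2 brightest of a cell type list. Of the panel, Plin1 was not analysed here. The members, lists and panel were chosen with earlier results of these data known. Of 56 lists written, 35 are described in detail, 5 had fewer than 5 tested genes, and the other 16, chemokines among them, had medians of -0.49 to 0.40, with 1 gene called in each direction. The labels do not state whether replicate numbers pair mice. Correlations of arrays within groups were 0.877 to 0.935 in UC and 0.903 to 0.942 in UU. The number of arrays limits precision. Detection calls and scan dates were not used. Figures used matplotlib 3.10.9.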

Additional observations from a re-analysis of the deposited data

Results flagged for a closer look

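Single arrays that stood far from the others of their group are listed by their signals, after 288 groups of 4 or 5 arrays were examined and 21 stood out. Chance alone marks about 1 in 20 groups. UU replicate 3 was high for Glo1 (7200, others 4987 to 5052), for the brighter probe set of Acsl4 (12309, others 6261 to 6808) and for Arntl (1462, others 1021 to 1060), and low for Adipoq (25263, others 43471 to 45790). In UU replicate 1, Lep was low at 85.6 (others 3768 to 5948), as was the brightest probe set of Lpgat1 at 2450 (others 7072 to 7160). Serpina1c was low in UU replicate 4 at 602.3 (others 893 to 936).

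Among UC arrays, replicate 5 was high for Rnase2a (17038, others 3594 to 5010) and low for Scd2 (11036, others 21377 to 27412). Replicate 4 was high for Ier2 (545.3) and low for Per1 (575.9). Replicate 3 was low for Adipoq (43138) and Cav1 (51466), replicate 1 was low for Serpina1b (6434, others 10708 to 12551), and replicate 2 was high for Serpina1c (15702, others 1086 to 2023).

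Mean log2 levels of lists also had distant arrays. UU replicate 1 was low for cholesterol synthesis (10.34) and for insulin signalling (10.85). UU replicate 3, the array of highest 3'/5' ratio, was low for the TCA cycle (12.46), branched-chain amino acid catabolism (11.11) and endothelial markers (10.20). UC replicate 5 was high for collagen and laminin chains (13.08).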

How the results depend on the processing

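All 65 called probe sets kept their direction in each of the 33 alternatives in which they were tested. They were chosen for a wide difference on these same arrays. Some alternatives, such as leaving out a CC array, cannot change the UC minus UU difference, so kept directions are only a description. The number called moved widely. As a percentage of the probe sets tested, 0.532% with the settings used, it was 0.0785% (16) with no filter on dim probe sets, 1.05% (126 higher, 2 lower) with median centring, 0.114% (14) without the variance trend, 0.0164% (2) with the 9 UC and UU arrays only, and 1.5% (184) at an adjusted p of 0.1. Leaving out 1 array at a time gave 0% to 0.891%: 0 calls without UC replicate 2 or 4, 10 without UC replicate 5, 109 and 99 without UC replicates 1 and 3, 2, 21, 5 and 28 without UU replicates 1 to 4, and 17, 15 and 40 without CC replicates 1, 3 and 5. Among alternatives chosen after seeing the data, it was 0% without the 2 UC arrays low in epididymal markers, 0.00818% (1) without the 4 such arrays, 0.0245% (3) without the 2 arrays with Xist signal, 0.0409% (5) without the 3 of highest 3'/5' ratio, 0.196% (24) with the epididymal level as a covariate, 1.24% (152) with the 3'/5' ratio and 1.21% (148) with both. The replicate block gave 84 (78 higher, 6 lower), of which 52 were among the 65. Same-numbered UC and UU arrays had deviation correlations of -0.05, 0.17, -0.13 and -0.16. Those of CC and UC were 0.33, 0.42, 0.39, -0.08 and -0.26, and those of CC and UU 0.02, 0.07, 0.26 and 0.19. Not every pair exceeded 0.1, so the numbers were not taken as pairs. The cause of these shifts was not tested.

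Of list medians, 9 moved by more than the spread between replicates in some alternative. Median centring gave 0.00 for the growth hormone axis, 0.16 for insulin signalling, -0.07 for splicing factors, 0.49 for collagens and 0.34 for matrix crosslinking. Without the 2 UC arrays low in epididymal markers, and likewise without the 4 arrays, triglyceride assembly was -0.06, insulin signalling -0.18, TCA cycle 0.21, clock -0.48, proteoglycans 0.23 and crosslinking 0.12. Without the Xist arrays the clock was -0.53 and crosslinking 0.05. With the epididymal covariate insulin signalling was -0.11, TCA cycle 0.23, proteoglycans 0.23 and crosslinking 0.07, and with both covariates -0.10, 0.24 and 0.06 for insulin signalling, TCA cycle and crosslinking. Array weights gave -0.48 for the clock and 0.22 for collagens, and the replicate block 0.12 for crosslinking. Leaving out 1 array gave -0.76 to -0.53 for the clock and 0.05 to 0.25 for crosslinking.

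Signs turned for 11 of 161 named or called probe sets, none of them called. With median centring Elovl6 was 0.14, Gpam 0.12, Mlxipl 0.07, Scd1 0.08 and Slc2a4 0.13. Without the 2 or the 4 arrays low in epididymal markers Adam7 was 0.03, Elovl6 0.09, Gpx5 1.13 and Pnpla2 -0.08. Elovl6 was 0.01 without the Xist arrays. Without the 3 arrays of highest 3'/5' ratio Elovl6 was 0.01, Gpam 0.07, Mlxipl 0.06 and Slc2a4 0.15. The epididymal covariate gave Elovl6 0.20, Gpx5 0.88 and Pnpla2 -0.02, the 3'/5' covariate Elovl6 0.01 and Slc2a4 0.03, and both covariates Elovl6 0.23 and Gpx5 0.84. Array weights gave Pnpla2 0.00 and the replicate block Gpam 0.01. Quantile normalization gave Elovl6 0.00, Lpl -0.01, Scd2 -0.10 and Slc2a4 0.01. Leaving out 1 array gave -0.08 to 0.06 for Elovl6, -0.15 to 0.09 for Gpam, -0.18 to 0.04 for Mlxipl, -0.02 to 0.32 for Pnpla2, -0.16 to 0.03 for Scd1, -0.09 to 0.24 for Scd2, -0.16 to 0.15 for Slc2a4 and -0.11 to 0.46 for Srebf1.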
